A study of Homo sapiens with 24 samples.

Results

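The integrated stress response is described here through 43 genes that are bound or induced by the transcription factor ATF4 or act beside it. They were found by matching the NCBI Gene identifiers of both count tables to a fixed list of symbols, and all 43 had 1 row in each table, out of 28395 genes in all. The matching used no expression value, but the list was drawn up with earlier results of these data known. By role they were 12 regulators (transcription factors and feedback genes), 10 enzymes of amino acid synthesis and of the linked one-carbon metabolism, 8 amino acid transporters, 11 genes of tRNA charging and export, and 2 genes of surface or secreted proteins. After the filter on low counts 42 could be tested in MM1.S and 41 in JJN3. NUPR1, a small stress-induced chromatin protein, had at most 2 counts in any library and was tested in neither line. CARS1, the cysteine tRNA synthetase, was not tested in JJN3.

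In this pathway, kinases that sense unfolded proteins, amino acid shortage, double-stranded RNA or lack of haem phosphorylate the translation factor eIF2, which lowers protein synthesis as a whole while the mRNA of ATF4 is translated more. ATF4 then switches on genes for the synthesis, uptake and tRNA charging of amino acids, together with DDIT3 (CHOP), ATF3 and TRIB3, which are tied to growth arrest and cell death when the stress lasts. Plasma cells and myeloma cells secrete large amounts of protein and carry a high load on this pathway.

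The cells were 2 established human lines of multiple myeloma, a cancer of plasma cells. They were MM1.S and JJN3. Each was kept for 24 h with vehicle, with 500 nM CX-5461, an inhibitor of RNA polymerase I, with 50 nM panobinostat, an inhibitor of histone deacetylases, or with both drugs, in RPMI-1640 medium with serum and a glutamine dipeptide. This gave 8 groups of 3 libraries of 3′ RNA sequencing, in which polyA-selected transcripts are read near their 3′ end. Whether replicates are separate cultures is not said in the labels. The p-values therefore speak only of the spread among these libraries, part or all of which may be technical. Each line is 1 genetic background, so the many differences between the lines cannot be told apart.

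Total counts per library ran from 4751893 to 7305069. The summed level of 10 plasma cell markers in MM1.S was 9335 ± 427 CPM (counts scaled to library size, mean ± SD, n = 3) with vehicle, 7415 ± 299 with CX-5461, 1193 ± 101 with panobinostat and 1054 ± 64.9 with both. In JJN3 it ran from a mean of 4848 CPM with vehicle to 2914 with both drugs, and CD38, a defining marker, was near 0. Markers of other cell types summed to 21.8 to 46.4 CPM in MM1.S and to 559.5 to 664 in JJN3 (group means, 10 genes), where most came from the haemoglobin gene HBB. The T cell gene CD3D was at 0 in both lines, and CD3E was at group means of 0.172 to 1.40 CPM. The collagen gene COL1A1 was at a mean of 13.4 CPM with panobinostat in MM1.S against 0.242 with vehicle, and COL1A2 at 0 and 0.0581. MALAT1, a nuclear RNA, took 0.438% to 0.725% of the counts of the MM1.S libraries without panobinostat and 5.66% to 8.65% of those with it. The part that these shifts have in the results below was not tested.

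Promoter sequences were searched for an element that ATF4 binds, and a match does not show that a gene is switched on through it. ATF4 pairs with C/EBP proteins on a composite element whose core was searched here as TGATGNAA, on both strands, from 250 bases before to 50 after each gene's start in RefSeq (GRCh38.p14). Of the 37 genes with an entry 16 held it (43.2%), against 681 of 18304 genes of the count tables (3.72%). It was present in 4 of 11 regulators, 1 of 6 synthesis genes, 4 of 7 transporters and 7 of 11 tRNA genes. The ATF/CREB element TGACGTCA, searched the same way, was found in 1 of 37 (PPP1R15A) and in 517 of 18304 (2.82%). No 8 bases can match both spellings. Neither spelling occurred in these windows of DDIT3, TRIB3 and ATF4, which says only that those letters are not there. Some matches lay after the start, among them those of SLC3A2 and SLC7A1. The stretches below are from genes whose levels carry the results that follow, with the match in capitals, read 5′ to 3′ on the gene's strand; in CHAC1, AARS1 and GARS1 the element lies on the opposite strand, so its reverse complement is shown.
ATF3 (chr1:212565196-212565243, plus strand): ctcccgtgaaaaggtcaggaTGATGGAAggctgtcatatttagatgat
CEBPG (chr19:33374051-33374098, plus strand): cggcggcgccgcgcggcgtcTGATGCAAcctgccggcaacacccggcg
JDP2 (chr14:75427986-75428021, plus strand): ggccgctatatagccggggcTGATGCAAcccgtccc
CHAC1 (chr15:40953242-40953289, plus strand): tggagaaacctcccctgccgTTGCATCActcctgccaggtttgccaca
PPP1R15A (chr19:48872343-48872390, plus strand): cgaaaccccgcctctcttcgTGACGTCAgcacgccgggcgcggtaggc
ASNS (chr7:97872449-97872496, minus strand): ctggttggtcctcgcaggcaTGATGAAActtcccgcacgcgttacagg
SLC1A5 (chr19:46784884-46784931, minus strand): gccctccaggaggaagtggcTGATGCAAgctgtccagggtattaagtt
AARS1 (chr16:70289666-70289713, minus strand): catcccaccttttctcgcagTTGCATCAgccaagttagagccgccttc
GARS1 (chr7:30594825-30594872, plus strand): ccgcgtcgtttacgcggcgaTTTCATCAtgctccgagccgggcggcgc

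One MM1.S library without drug had high levels of most of these genes, and every comparison with vehicle in that line rests in part on it. Vehicle replicate 2 was the highest of the 3 vehicle libraries for 34 of 37 genes of the list with a mean of at least 5 CPM (91.9%), while over all 8845 genes at that level it was the highest for 34.8%. Its ratio to the mean of the other 2 libraries had a median of 1.65 for these genes and 0.991 for all genes, and it reached 1.5 or more for 26 of 37 against 2.08% of all genes. CHAC1, an enzyme that degrades glutathione, stood at 3.14, 53.7 and 3.15 CPM in vehicle replicates 1 to 3, a ratio of 17.1. SLC7A11, the cystine importer, stood at 4.71, 44.3 and 8.13 CPM. PSPH and PSAT1, of serine synthesis, stood at 11, 50.0 and 13.4 and at 77.5, 234 and 78.3 CPM. ATF4 itself stood at 281, 729 and 267 CPM, a ratio of 2.66. The export factor XPOT (ratio 0.859), ALDH18A1 of proline synthesis (0.764) and CEBPG, a partner of ATF4 (0.905), lay below the other libraries. In JJN3, replicate 2 was the highest of its group for 26 of 37 genes with vehicle and with CX-5461, 25 of 35 with panobinostat and 19 of 37 with both (51.4% to 71.4%, against 34.4% to 37.7% of all genes). For these genes, comparisons with vehicle in MM1.S are therefore given with and without vehicle replicate 2, and the changed calls are named for each treatment. That library was picked out for its high levels of these same genes. Leaving it out raises most of their fold changes against vehicle, and can narrow their spread, by that choice. Calls gained without it show dependence on 1 library and are not separate support.

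**Figure D1:**
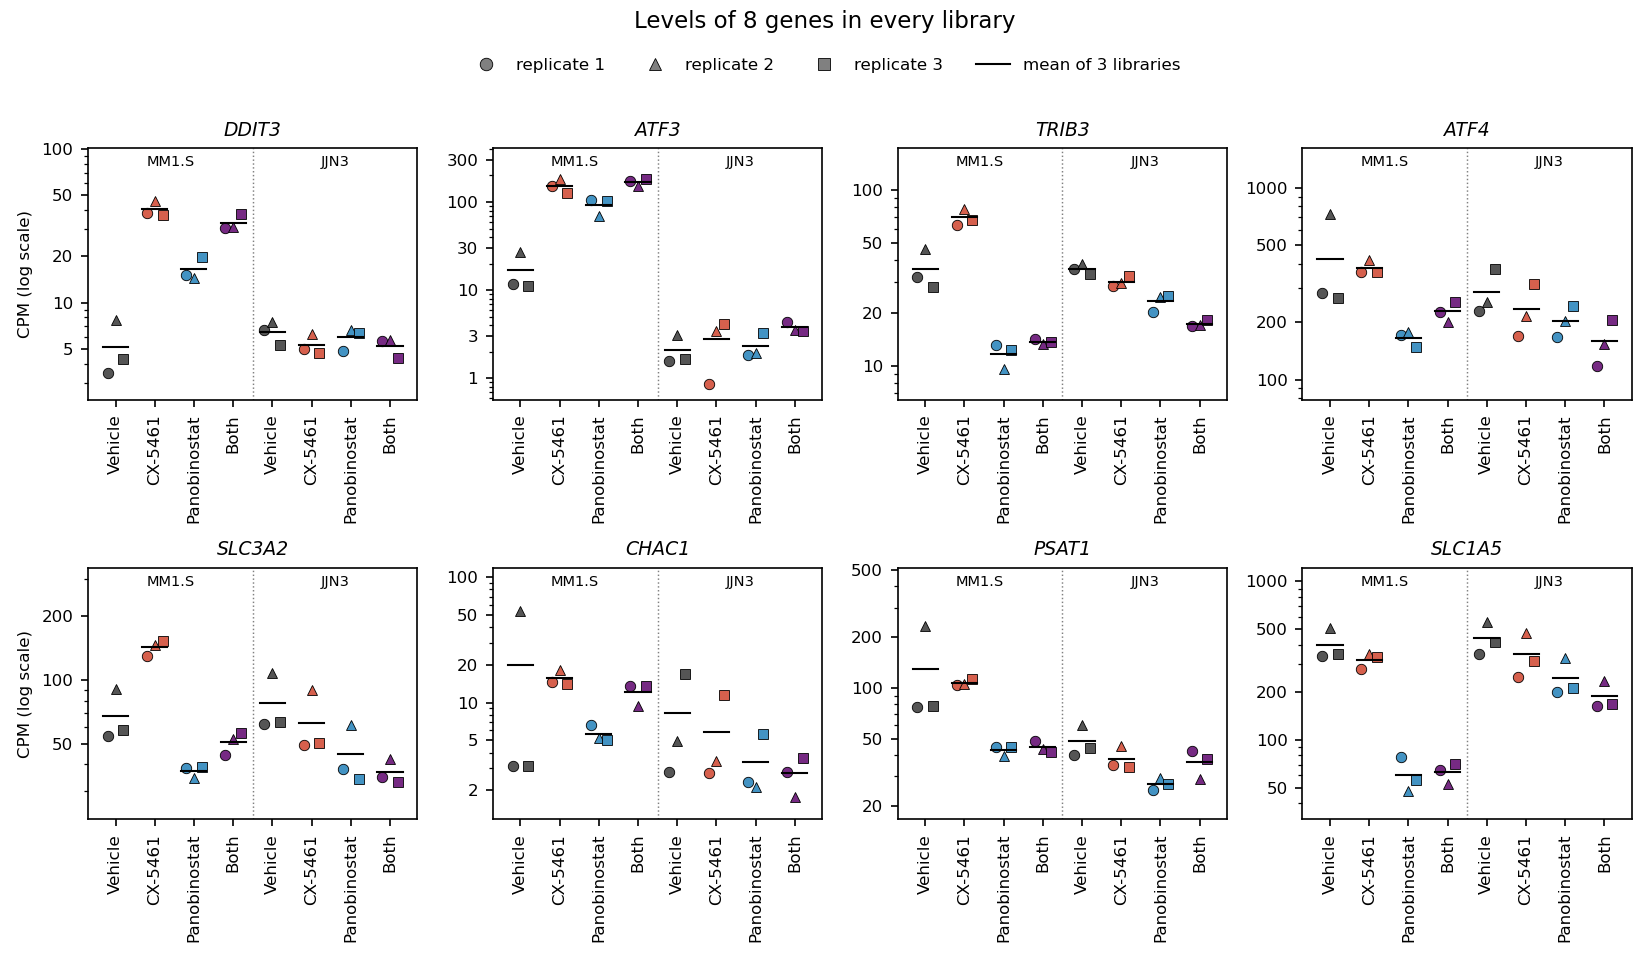
Level of 8 genes in each of the 24 libraries, in CPM on a log axis, by treatment and line; symbols mark the replicate number and lines the mean of 3 libraries. DDIT3 and ATF3 lie higher in all 9 treated MM1.S libraries than in any of their vehicle libraries, while for ATF4, CHAC1, PSAT1 and SLC1A5 vehicle replicate 2 lies above all 9.

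CX-5461 raised DDIT3, ATF3, PPP1R15A, TRIB3 and the transporter SLC3A2 in MM1.S, and these 5 were called in each of the 6 fits that left out 1 vehicle or CX-5461 library. A gene is called where edgeR's quasi-likelihood test gave an adjusted p under 0.05 over all genes. Of the 42 genes 12 were higher and 3 lower, where 9.68% and 7.06% of all 12030 genes tested were. Scaling by library size alone gave 13 and 1 for the 42 genes, against 12.8% and 4.23% of all genes. Among the regulators 8 of 11 rose and 0 fell (0 also at an unadjusted p under 0.05, with DESeq2 and with limma-voom), with a median log2 fold change of 0.92, against 0.0077 over all genes. Among the 29 genes of synthesis, transport and tRNA charging edgeR called 4 higher and 3 lower, with a median of -0.11, while DESeq2 called 2 higher and 4 lower. In bulk RNA, a change in some cells and a smaller change in every cell cannot be told apart.

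DDIT3, the transcription factor CHOP, stood at 3.49, 7.67 and 4.31 CPM in the vehicle libraries and at 38.6, 46.0 and 37.2 CPM with CX-5461. The groups did not overlap, and the log2 fold change was 3.02 ± 0.20 (edgeR adjusted p = 9.01e-11). ATF3, a transcriptional repressor, rose from 11.9, 27.4 and 11.3 to 153, 181 and 126 CPM, by 3.22 ± 0.31 on the log2 scale (adjusted p = 7.41e-05). PPP1R15A (GADD34), which brings a phosphatase to eIF2 and so ends the response, rose from 22.0, 38.6 and 22.1 to 96.5, 100.1 and 95.6 CPM (1.84 ± 0.15, adjusted p = 3.05e-09). For both genes, too, every treated library lay above every vehicle library. TRIB3, a pseudokinase that dampens ATF4 and AKT signalling, rose less, from 32.1, 45.8 and 28.0 to 63.0, 78.2 and 67.8 CPM (0.99 ± 0.15, adjusted p = 2.34e-05). ATF4 was at 365, 419.6 and 362 CPM with CX-5461, between vehicle replicate 2 and the other 2, and did not pass (-0.15 ± 0.35, adjusted p = 0.829). Without vehicle replicate 2 it was higher by 0.48 ± 0.12 (adjusted p = 0.00811).

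The other regulators that rose were JDP2, a repressor of AP-1 (1.52 ± 0.45), CEBPB (0.86 ± 0.23) and CEBPG (0.56 ± 0.14), C/EBP proteins, and ATF5 (0.58 ± 0.17), which like ATF4 is regulated in translation. Each of these lost its call in at least 1 of the 6 fits with a library left out. DDIT4 (REDD1), an inhibitor of mTORC1, went from 28.6, 65.1 and 20.2 to 81.2, 68.1 and 61.8 CPM. The lowest treated library lay below vehicle replicate 2, so the groups overlapped. It passed only without vehicle replicate 2 (0.92 ± 0.34, adjusted p = 0.108, and 1.52 ± 0.15, adjusted p = 1.35e-07). CHAC1 was at 14.7, 18.2 and 14.2 CPM with CX-5461. That is below vehicle replicate 2 and above the other 2 vehicle libraries, and its log2 fold change went from -0.27 ± 0.90 with all libraries to 2.31 ± 0.26 without replicate 2 (adjusted p = 0.888 and 1.74e-06).

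Among the transporters SLC3A2, the heavy chain shared by the exchangers SLC7A5 and SLC7A11, rose from 54.4, 91.2 and 58.2 to 129, 146 and 154 CPM (1.08 ± 0.14, adjusted p = 8.61e-06). Its light chain for large neutral amino acids, SLC7A5 (LAT1), went the other way, from 33.3, 66.0 and 48.6 to 23.6, 30.9 and 33.1 CPM (-0.74 ± 0.22, adjusted p = 0.0280), a call lost without vehicle replicate 2 (adjusted p = 0.119). The glycine transporter SLC6A9 rose at low counts, from 4, 16 and 8 to 26, 42 and 52 counts (1.72 ± 0.44). The other 5 transporters had log2 fold changes between -0.31 and 0.25 and did not pass. Without vehicle replicate 2, SLC7A11 (1.23 ± 0.26) and SLC38A2 (0.58 ± 0.18), an importer of small neutral amino acids, were also called higher.

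No synthesis gene passed as higher with all 12 libraries in edgeR, DESeq2 or limma-voom, and 1 of the 10 was higher at an unadjusted p under 0.05. SHMT2, the mitochondrial serine hydroxymethyltransferase, was the nearest, at 111, 154 and 105 CPM with vehicle and 139, 151 and 152 CPM with CX-5461 (0.26 ± 0.12, adjusted p = 0.140). ALDH18A1, of proline synthesis, fell from 35.2, 26.3 and 33.7 to 21.0, 24.2 and 22.2 CPM (-0.51 ± 0.15, adjusted p = 0.0229), and it was also called lower without vehicle replicate 2, though not in all 6 fits with 1 library left out. All 10 synthesis genes had their CX-5461 libraries below vehicle replicate 2, a count with no share over all genes beside it. Without that library 5 were called higher, CTH of cysteine synthesis (1.13 ± 0.28), PSPH (1.30 ± 0.18), the asparagine synthetase ASNS (0.56 ± 0.13), PSAT1 (0.46 ± 0.11) and SHMT2 (0.45 ± 0.11). The median of the 10 was then 0.41, against -0.02 with all libraries and 0.06 with library size alone as the scaling.

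Of the tRNA genes, the synthetases of alanine and serine were called higher by edgeR and limma-voom and by DESeq2 not at all. AARS1 went from 44.7, 80.5 and 52.9 to 78.4, 86.2 and 84.6 CPM (0.50 ± 0.16, adjusted p = 0.0397) and SARS1 from 26.5, 50.7 and 30.5 to 50.8, 49.7 and 54.0 CPM (0.54 ± 0.18, adjusted p = 0.0428), in both cases with treated libraries overlapping or close to vehicle replicate 2. Each lost its call in 5 of the 6 fits with a library left out (all but that without vehicle replicate 2), and with the replicate block. EPRS1, the synthetase of glutamate and proline, was lower (-0.31 ± 0.11, adjusted p = 0.0478), a call lost without vehicle replicate 2. The other 8 lay between -0.37 and 0.02 and did not pass, and GARS1, for glycine, was the 1 gene added without vehicle replicate 2 (0.51 ± 0.14). STC2, a secreted glycoprotein, had 1, 6 and 2 counts with vehicle and 9, 10 and 14 with CX-5461 (adjusted p = 0.0760, and 0.0155 without vehicle replicate 2). The lipoprotein receptor VLDLR stood at 4.36, 3.51 and 2.65 and 5.79, 2.42 and 3.79 CPM and did not pass (adjusted p = 0.790).

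Without vehicle replicate 2, the calls for CX-5461 were 24 higher and 1 lower, and they held all 12 genes called higher with it. A gain in higher calls follows in part from leaving out a library picked for high levels of these genes. How large that part is was not tested. Over all genes the shares were 8.3% higher and 5.9% lower, below those with all 12 libraries. Regulators then stood at 11 of 11 higher (median log2 fold change 1.52) and the 29 genes of synthesis, transport and tRNA charging at 12 higher and 1 lower (median 0.29). In both fits the regulators had the higher median, though no test compared the roles. Set against vehicle replicate 2 itself, all 3 CX-5461 libraries were higher for 8 of 12 regulators and 2 of 8 transporters. They were so for 0 of 10 synthesis genes, 0 of 11 tRNA genes and 1 of 2 surface or secreted genes. These counts have no test and no share over all genes beside them. They also depend on the choice of a library in which most of these genes are high. The number of genes called was 15 with all libraries, 7 without vehicle replicate 1, 25 without vehicle replicate 2, 8 without vehicle replicate 3, and 8, 9 and 9 without CX-5461 replicates 1, 2 and 3.

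**Figure D2:**
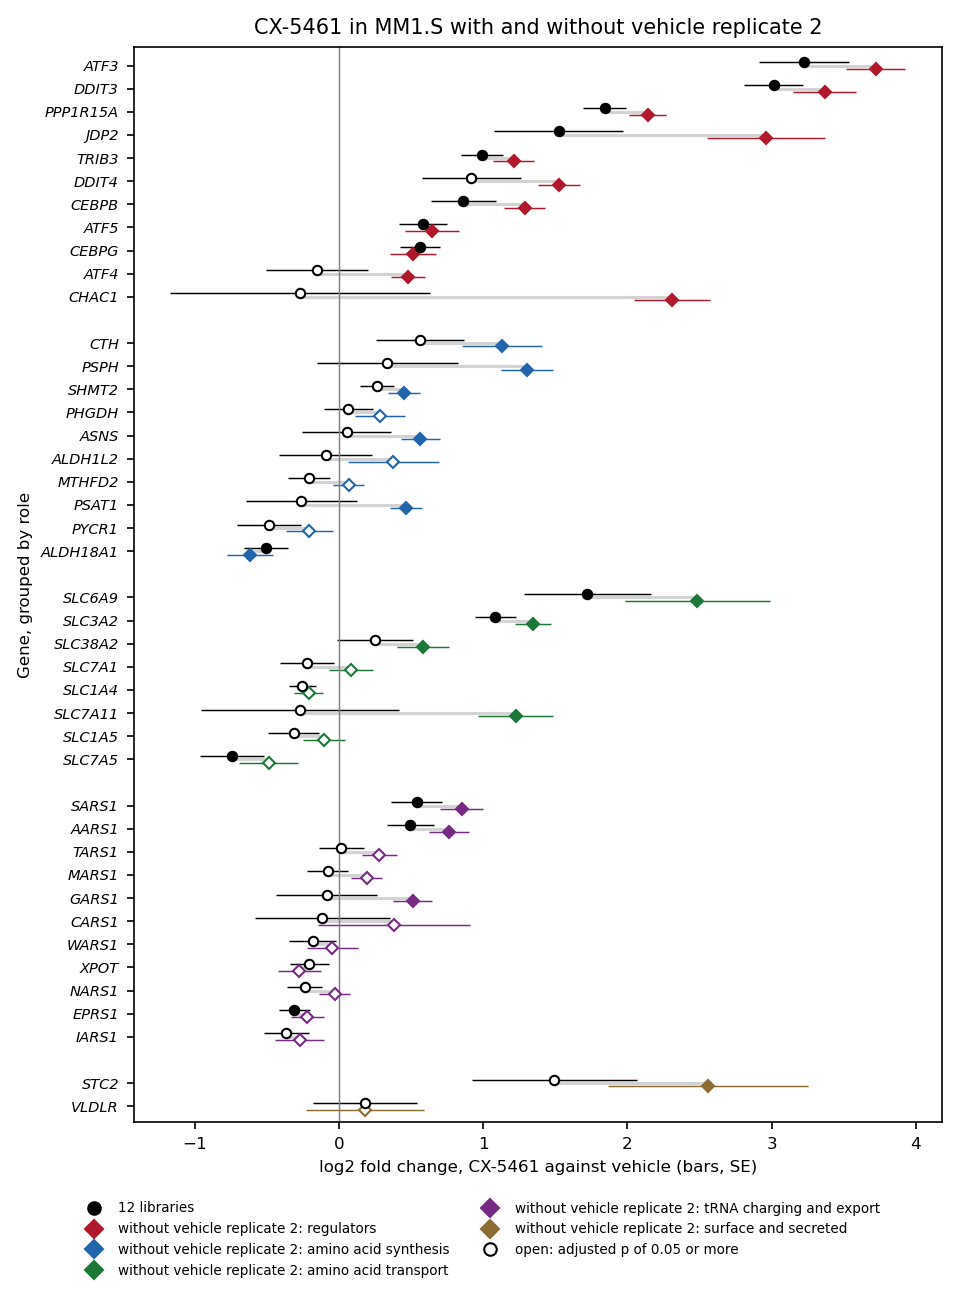
Effect of CX-5461 in MM1.S, as log2 fold change (± SE) over vehicle, for 42 genes by role, with all 12 libraries (circles) and without vehicle replicate 2 (diamonds); open symbols have an adjusted p of 0.05 or more. CHAC1 moves from -0.27 to 2.31 between the fits, while DDIT3, ATF3, PPP1R15A, TRIB3 and SLC3A2 are filled in both.

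Panobinostat split DDIT3, ATF3 and TRIB3 in MM1.S: the first 2 rose and TRIB3 fell. Of 42 genes 6 were higher and 24 lower, where 36.9% and 32.9% of all genes were called. The higher genes were DDIT3, ATF3, DDIT4, PPP1R15A, CTH and STC2. Regulators were split, 4 higher and 6 lower of 11, while of the 29 genes of synthesis, transport and tRNA charging 1 was higher and 18 were lower (median log2 fold change -0.84, against 0.07 over all genes). With library size alone as the scaling the all-gene median moved by 0.14, which gave 2 higher and 17 lower of these 29 (41.8% and 28.4% of all genes).

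DDIT3 stood at 15.1, 14.5 and 20.0 CPM with panobinostat, above all vehicle libraries and below all CX-5461 libraries (1.72 ± 0.23 against vehicle, adjusted p = 2.90e-07). ATF3 stood at 105, 70.0 and 103 CPM (2.49 ± 0.31, adjusted p = 4.28e-05), and PPP1R15A at 51.1, 44.7 and 51.8 CPM (0.85 ± 0.16, adjusted p = 3.36e-05). DDIT4 rose to 178, 172 and 178 CPM, the highest of the 4 MM1.S groups (2.24 ± 0.34, adjusted p = 2.69e-04). TRIB3 fell to 13.1, 9.63 and 12.2 CPM (-1.59 ± 0.17, adjusted p = 1.42e-08), and its libraries lay below every library without panobinostat. ATF4 fell to 171, 177 and 147 CPM (-1.37 ± 0.36, adjusted p = 0.00885), and without vehicle replicate 2 the fall was -0.76 ± 0.12 (adjusted p = 4.83e-06). ATF5 fell to 6.64, 3.85 and 4.71 CPM (-2.00 ± 0.21), and CEBPB (-1.31 ± 0.26) and CEBPG (-1.27 ± 0.16) fell as well.

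The transporters had the lowest median of the roles, -1.92. SLC1A5 (ASCT2), a glutamine transporter, fell from 338, 508 and 347 to 77.6, 47.5 and 55.9 CPM (-2.72 ± 0.19, adjusted p = 6.93e-09), and SLC1A4, its close relative, from 244, 267 and 241 to 61.7, 73.4 and 64.6 CPM (-1.91 ± 0.10, adjusted p = 1.23e-14). For neither gene did the groups overlap. SLC7A5 was at 5.63, 2.80 and 5.83 CPM (-3.37 ± 0.29), the cationic amino acid transporter SLC7A1 at -1.92 ± 0.22 and SLC3A2, raised by CX-5461, at -0.86 ± 0.15 on the log2 scale. SLC6A9 had 1, 3 and 0 counts, at or under the limit that 3 counts set, and no fold is given. SLC38A2 and SLC7A11 did not pass (0.57 ± 0.27 and -0.83 ± 0.74) and were called higher without vehicle replicate 2 (0.87 ± 0.18 and 0.63 ± 0.27).

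Of the synthesis genes 6 of 10 fell and CTH rose, from 3.84, 11.8 and 5.14 to 16.5, 17.5 and 26.4 CPM (1.59 ± 0.29, adjusted p = 7.76e-05). SHMT2 fell to 62.8, 51.1 and 58.7 CPM (-1.10 ± 0.13, adjusted p = 3.54e-08) and MTHFD2, its neighbour in mitochondrial one-carbon metabolism, from 134, 231 and 146 to 85.1, 72.8 and 80.2 CPM (-1.10 ± 0.15, adjusted p = 2.05e-06). The largest fall was that of PYCR1, the last step to proline (-1.83 ± 0.24). Of the tRNA genes 6 of 11 fell, from -1.27 to -0.40. IARS1, the isoleucine synthetase, fell from 29.8, 35.5 and 28.5 to 14.7, 11.9 and 12.2 CPM (adjusted p = 3.83e-07) and XPOT, which carries tRNA out of the nucleus, from 39.6, 36.4 and 45.1 to 17.5, 21.4 and 16.8 CPM (-1.12 ± 0.15, adjusted p = 2.22e-07). STC2 had 13, 12 and 6 counts (1.76 ± 0.57, adjusted p = 0.00845) and VLDLR stood at 4.22, 2.45 and 4.71 CPM, with no call. Of the 24 genes called lower, 22 were called in each of the 6 fits with 1 library left out. Without vehicle replicate 2 the calls were 10 higher and 22 lower (34.7% and 32% of all genes). CHAC1, PSPH, SLC38A2 and SLC7A11 were then added as higher, and JDP2 and MARS1 were no longer called lower.

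With both drugs, MM1.S kept the split of panobinostat, with DDIT3 and ATF3 at levels near those of CX-5461. Against vehicle 5 genes were higher and 23 lower (37% and 33.2% of all genes), and the 29 genes of synthesis, transport and tRNA charging had 1 higher and 17 lower (median log2 fold change -0.87). DDIT3 stood at 30.7, 31.1 and 37.6 CPM (2.72 ± 0.21 against vehicle), ATF3 at 172, 151 and 184 CPM (3.37 ± 0.31) and PPP1R15A at 64.0, 61.7 and 70.6 CPM (1.27 ± 0.15). DDIT3 was the 1 gene of 42 called against panobinostat alone, higher by 1.00 ± 0.17 (adjusted p = 0.00130), and 3 genes were called without panobinostat replicate 1. Among all genes 2.44% were called higher and 1.65% lower, or 401 and 150 genes in place of 293 and 198 with library size alone. TRIB3 stood at 14.2, 13.3 and 13.7 CPM, again below every library without panobinostat (-1.35 ± 0.17 against vehicle and -2.35 ± 0.16 against CX-5461). Without vehicle replicate 2, 11 genes were higher and 20 lower than vehicle (34.7% and 32.5% of all genes), and ATF4, at 225, 199 and 255 CPM, went from -0.91 ± 0.36 to -0.32 ± 0.12. In that fit ASNS, CHAC1, PSPH, SARS1, SLC7A11 and STC2 were added as higher. ALDH1L2, JDP2 and SLC3A2 were no longer called lower.

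Against CX-5461 alone, a comparison that uses no vehicle library, the combination had 2 genes higher and 23 lower (35.9% and 33.9% of all genes). DDIT4 (1.09 ± 0.32) and CTH (0.92 ± 0.27) were the higher ones. Transporters had 6 of 8 lower (median log2 fold change -1.63), synthesis genes 7 of 10 lower and 1 higher, tRNA genes 4 of 11 lower, and regulators 6 of 11 lower and 1 higher, against 0.04 over all genes. SLC3A2, at 44.5, 52.7 and 56.1 CPM with both drugs, was lower by -1.49 ± 0.15 on the log2 scale, while DDIT3 (-0.29 ± 0.16) and ATF3 (0.14 ± 0.26) did not pass. Of the 23 lower calls 20 held in each of the 6 fits with 1 library left out. With the replicate block 3 genes were higher, WARS1 being added, and 24 lower (36.8% and 34.8% of all genes), with PYCR1 lost and SLC38A2 and TARS1 added.

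The joint effect on DDIT3, ATF3 and PPP1R15A was smaller than the sum of the single effects. Departure from additivity is the combination's log2 fold change less the 2 single-drug values added together, and it was -2.35 ± 0.41 for ATF3, -2.01 ± 0.28 for DDIT3 and -1.43 ± 0.21 for PPP1R15A (adjusted p = 0.00947, 3.80e-05 and 9.43e-05). These 3 were called in all 12 fits with 1 library left out. It was above 0 for PYCR1 (1.26 ± 0.33) and SLC7A5 (1.75 ± 0.41), which were lost in at least 1 of those fits. Among all genes 1.87% were called above 0 and 3.65% below. Without vehicle replicate 2, 2 genes lay above and 12 below (1.2% and 3.07% of all genes), with TRIB3, CEBPB, DDIT4, CTH, PSPH, SHMT2, SLC38A2, SLC3A2 and STC2 added, while without replicate 3 of the combination 3 genes were called in all.

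**Figure D3:**
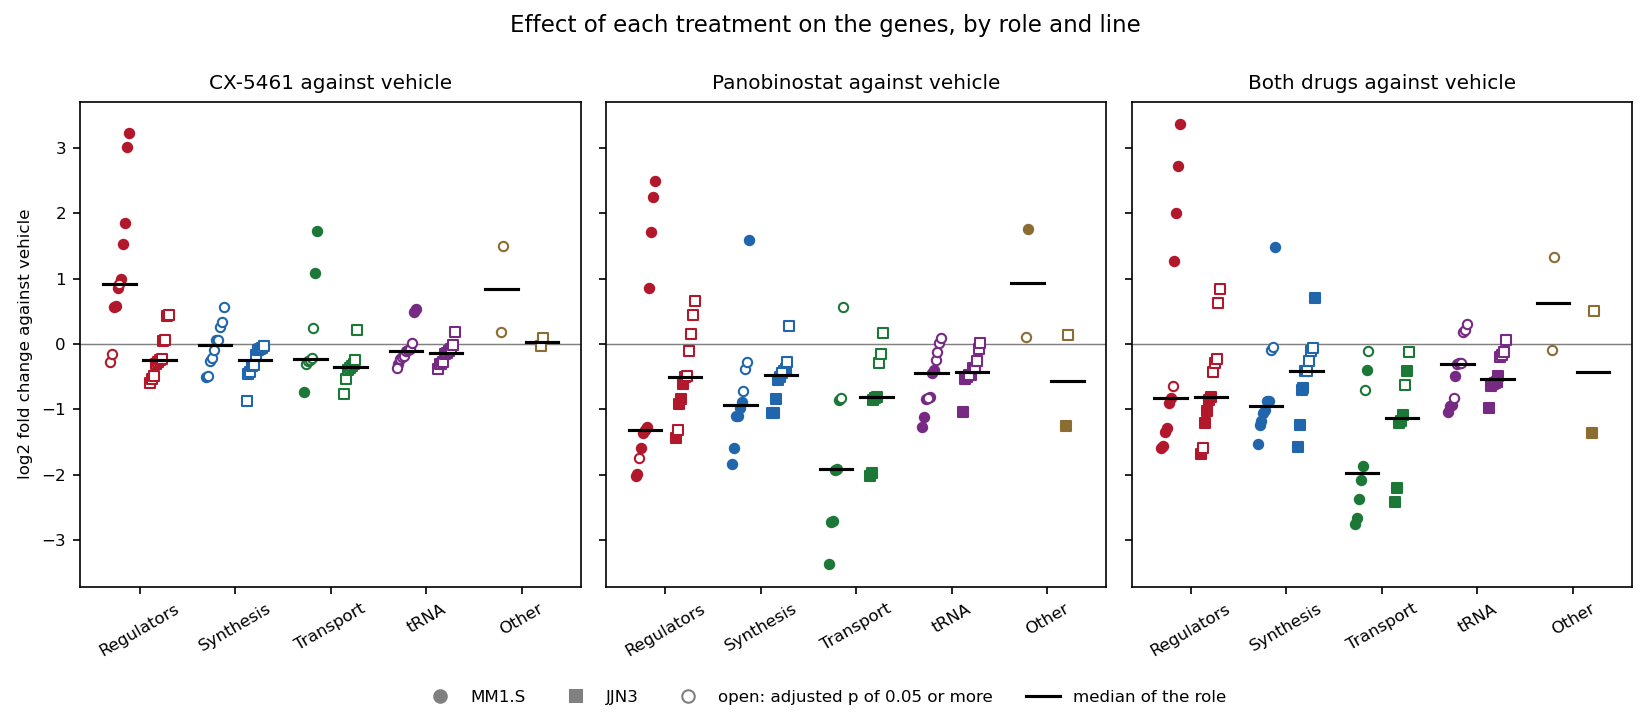
Log2 fold change against vehicle for each gene, by role, in MM1.S (circles) and JJN3 (squares) for the 3 treatments; filled symbols are called, and bars are medians of the role. With CX-5461 the regulators in MM1.S have a median of 0.92 and in JJN3 of -0.25, and with panobinostat the transporters lie lowest in both lines.

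In JJN3 none of these genes was called higher with CX-5461 in the main fit. For CX-5461 replicates 2 and 3 of this line, 1 label field gives a compound number other than that of their titles and treatment protocols, which were followed here. Of 41 tested 0 were called by edgeR, DESeq2 or limma-voom, 0 were higher and 5 lower at an unadjusted p under 0.05, and edgeR called 0% of all 11411 genes. DDIT3 stood at 6.58, 7.47 and 5.27 CPM with vehicle and at 4.99, 6.27 and 4.67 CPM with CX-5461 (-0.28 ± 0.25, adjusted p = 0.980). ATF3 was low, at 1.59, 3.10 and 1.66 and 0.861, 3.42 and 4.18 CPM, with overlapping groups (0.42 ± 0.48). TRIB3 stood at 35.5, 37.7 and 33.1 and 28.2, 29.6 and 32.5 CPM, all treated libraries below all vehicle libraries, and did not pass (-0.23 ± 0.14, adjusted p = 0.942). ATF4 stood at 227, 253 and 377 and 169, 213 and 314 CPM, and in each replicate number the treated library was the lower one. Median log2 fold changes were below 0 in each of the 4 roles, from -0.36 for transporters to -0.14 for tRNA genes, against -0.0031 over all genes. JJN3 libraries with the same replicate number deviated together, and with that number as a block 6 genes were called lower, where 0.771% of all genes were lower and 0.605% higher: DDIT4 (-0.60 ± 0.12), ALDH1L2 (-0.87 ± 0.20), ASNS (-0.46 ± 0.11), PYCR1 (-0.43 ± 0.08), SLC1A5 (-0.37 ± 0.08) and EPRS1 (-0.37 ± 0.10).

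Panobinostat lowered genes of every role in JJN3, and DDIT3 and ATF3 were not called there. Of 41 genes 0 were higher (0 also at an unadjusted p under 0.05, with DESeq2 and with limma-voom) and 22 lower, where 15% and 10.9% of all genes were called. The lower ones were 5 of 11 regulators, 7 of 10 synthesis genes, 5 of 8 transporters, 4 of 10 tRNA genes and STC2. The median over synthesis, transport and tRNA charging was -0.48, against 0.0053 over all genes. TRIB3 fell to 20.1, 24.7 and 24.9 CPM (-0.61 ± 0.14, adjusted p = 0.00493). DDIT3 stood at 4.86, 6.64 and 6.36 CPM (-0.11 ± 0.25, adjusted p = 0.789) and ATF3 at 1.84, 1.93 and 3.28 CPM (0.15 ± 0.49, adjusted p = 0.853), both overlapping with vehicle. ATF4, at 166, 203 and 240.3 CPM, did not pass (-0.50 ± 0.26, adjusted p = 0.175) and was called lower with the replicate block (adjusted p = 4.38e-05). The largest falls among genes above the count limit were those of SLC7A5, from 49.6, 141 and 68.6 to 19.6, 23.6 and 22.6 CPM (-1.98 ± 0.46), and ATF5 (-1.45 ± 0.34), with PYCR1 (-1.06 ± 0.14) and XPOT (-1.04 ± 0.26) lower as well. STC2, abundant in this line, fell from 141, 199 and 134 to 63.5, 87.5 and 47.6 CPM (-1.26 ± 0.29).

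Of the 22 lower calls, 9 held in each of the 6 fits with 1 library left out: ALDH18A1, ATF5, MTHFD2, PSAT1, PYCR1, SLC7A5, STC2, TRIB3 and XPOT. The number called was 10 without panobinostat replicate 1 and 12 without vehicle replicate 2 or panobinostat replicate 3. With the replicate block 30 genes were lower (19.5% of all genes) and 1, PPP1R15A, was higher (22.4% of all genes; 0.67 ± 0.16, adjusted p = 0.00129).

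With both drugs in JJN3, 23 genes were lower and 1 higher than with vehicle (18.2% and 21% of all genes, or 1539 lower and 2943 higher in place of 2072 and 2400 with library size alone). CTH was the higher one, from 22.1, 20.6 and 21.7 to 43.2, 23.7 and 37.2 CPM (0.70 ± 0.20, adjusted p = 0.0112). DDIT4 fell from 806, 613 and 427 to 201, 214 and 158 CPM (-1.69 ± 0.28, adjusted p = 4.83e-04), the opposite direction to MM1.S. TRIB3 fell to 16.7, 17.1 and 18.2 CPM (-1.03 ± 0.15, adjusted p = 3.38e-05) and ATF4 to 118, 152 and 204 CPM (-0.86 ± 0.26, adjusted p = 0.0170). DDIT3 at 5.63, 5.69 and 4.33 CPM and ATF3 at 4.36, 3.53 and 3.46 CPM did not pass (-0.29 ± 0.25 and 0.85 ± 0.46). SLC7A5 had the lowest log2 fold change among genes above the count limit (-2.41 ± 0.47), and the transporters had a median of -1.13. Of the 23 lower calls 21 held in each of the 6 fits with 1 library left out. With the replicate block 26 genes were lower and 2 higher (25.9% and 27.6% of all genes), the second being PPP1R15A (0.67 ± 0.16, adjusted p = 7.23e-04).

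Against panobinostat alone, 0 of 41 genes were called in JJN3 by edgeR, DESeq2 or limma-voom (1 higher and 4 lower at an unadjusted p under 0.05), where 0.184% and 0.719% of all genes were called higher and lower, or 59 and 56 genes in place of 21 and 82 with library size alone. With the replicate block 5 were lower, where 6.48% of all genes were lower and 5.78% higher: TRIB3 (-0.41 ± 0.14), ATF4 (-0.38 ± 0.09), DDIT4 (-0.73 ± 0.12), SLC1A5 (-0.37 ± 0.09) and EPRS1 (-0.39 ± 0.10). Against CX-5461 alone CTH was higher (0.76 ± 0.20) and 16 genes were lower (18.8% and 15.6% of all genes), with 17 called in all, 8 without combination replicate 1 and 11 without CX-5461 replicate 2. With the block 2 were higher, CTH and PPP1R15A, and 23 lower (25.8% and 23.2% of all genes). No gene of the 41 departed from additivity in JJN3 by any of the 3 tools, 2 lay above 0 and 1 below at an unadjusted p under 0.05, and 0% of all genes were called.

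**Figure D4:**
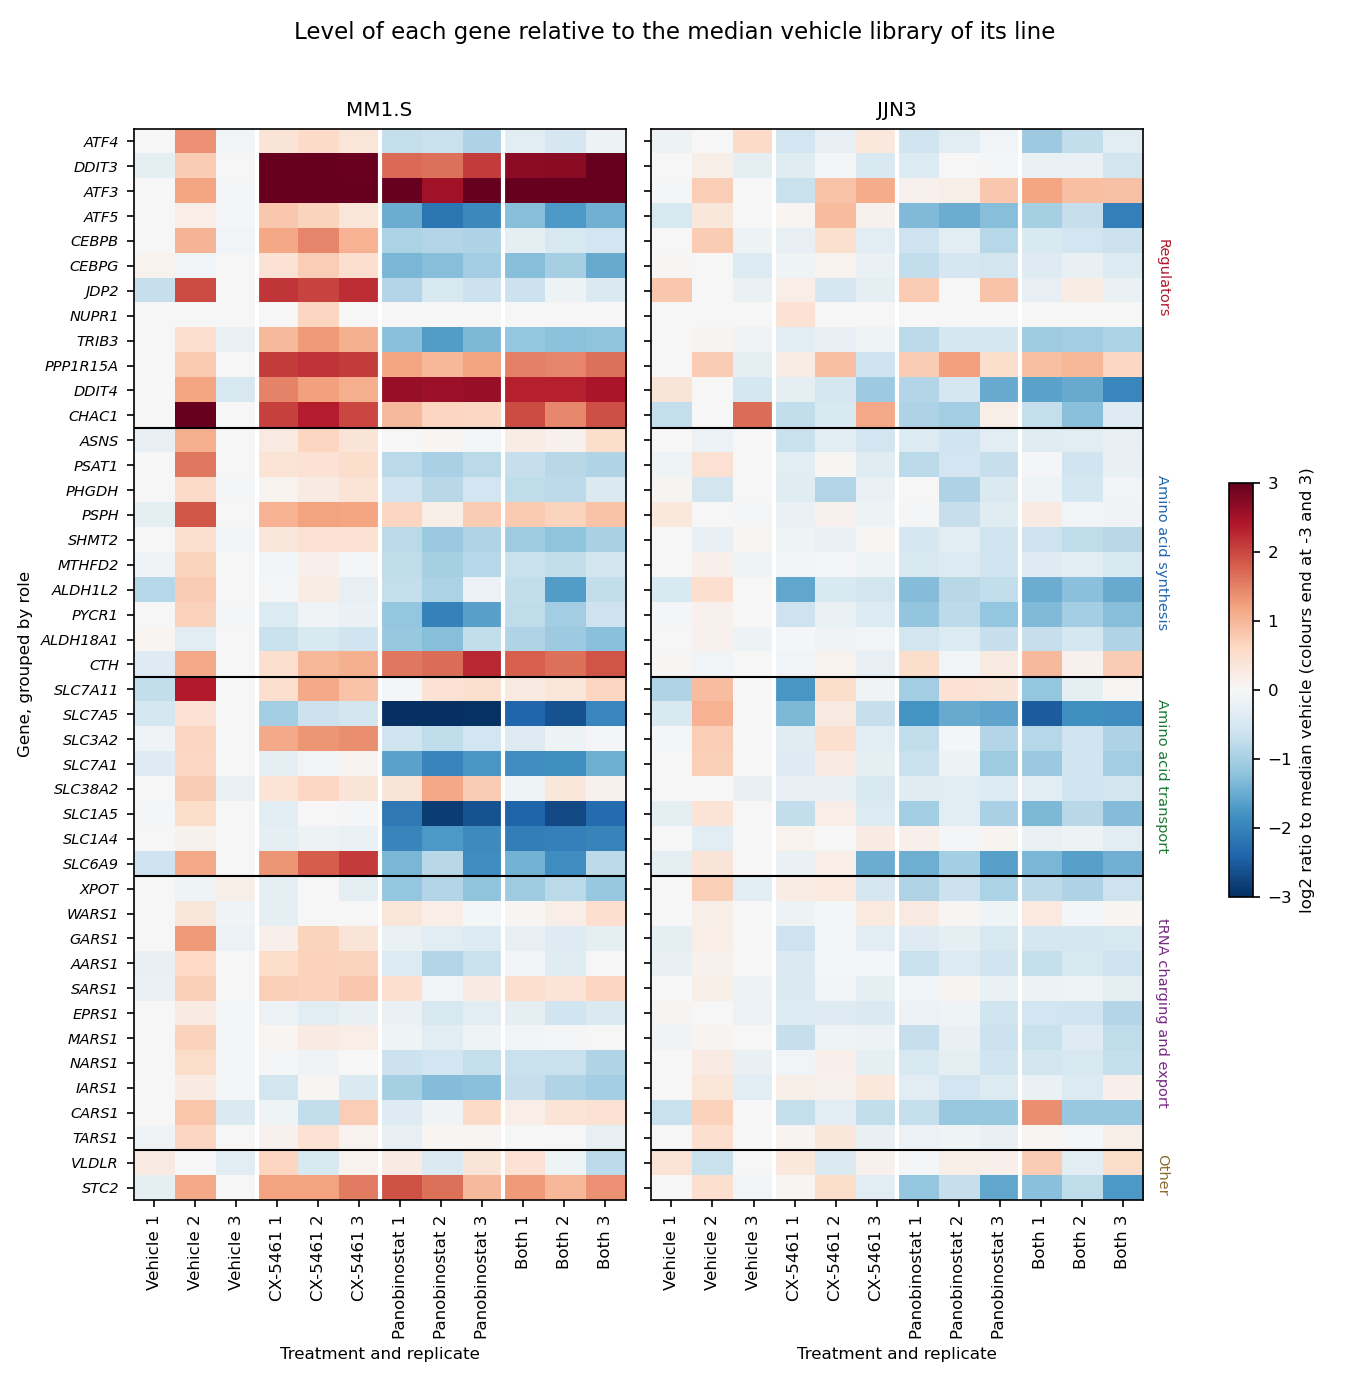
Log2 ratio of each library to the median vehicle library of its line, for the 43 genes (rows, by role) and 24 libraries (columns, by line, treatment and replicate), with 0.5 CPM added and colours that end at 3 in either direction. In MM1.S the column of vehicle replicate 2 is red for most genes, and DDIT3 and ATF3 are red in all treated MM1.S columns.

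The effect of CX-5461 was smaller in JJN3 than in MM1.S for DDIT3, ATF3, PPP1R15A, TRIB3 and SLC3A2. Tested in 1 fit of all 24 libraries, the difference in log2 fold change (JJN3 minus MM1.S) was -3.28 ± 0.33 for DDIT3, -2.79 ± 0.65 for ATF3, -1.78 ± 0.41 for PPP1R15A, -1.38 ± 0.34 for SLC3A2 and -1.22 ± 0.21 for TRIB3 (edgeR adjusted p = 9.65e-08, 0.0297, 0.0320, 0.0448 and 7.54e-04). These were the 5 of 42 genes called, all below 0, where 1.03% of all genes were called below and 0.287% above. DDIT3 and TRIB3 were called in all 12 fits with 1 library left out. The number called was 2 without MM1.S vehicle replicate 1 or 3 or JJN3 vehicle replicate 2. It was 3 without any 1 of the MM1.S CX-5461 libraries, JJN3 vehicle replicate 1 or 3, or JJN3 CX-5461 replicate 1. With the replicate number as a block, ATF3 lost its call (adjusted p = 0.107) and 9 genes were below 0 and 1 above (2.89% and 1.63% of all genes). Without MM1.S vehicle replicate 2, 14 genes were called below 0 (0.924% of all genes, and 0.25% above), with JDP2, CEBPB, DDIT4, ASNS, PSPH, SLC6A9, AARS1, SARS1 and GARS1 added.

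With panobinostat the lines differed in both directions, 10 genes above 0 and 6 below (18.9% and 14.4% of all genes). DDIT3 (-1.80 ± 0.34), ATF3 (-2.31 ± 0.66), DDIT4 (-3.13 ± 0.48), STC2 (-3.01 ± 0.84), CTH (-1.28 ± 0.38) and SLC38A2 (-0.84 ± 0.26) were below 0. The genes above 0, that is, with a smaller fall in JJN3 or none, had SLC1A4 (2.09 ± 0.16), SLC1A5 (1.91 ± 0.36) and TRIB3 (1.00 ± 0.23) in all 12 fits with 1 library left out. SLC1A4 stood at 67.9, 53.3 and 68.9 CPM with vehicle and at 75.6, 65.2 and 72.1 CPM with panobinostat in JJN3, with no call there. Without MM1.S vehicle replicate 2 the split turned to 4 above and 8 below (15.3% and 15.1% of all genes), and without JJN3 vehicle replicate 3 it was 4 above and 6 below. ATF3 lost its call in at least 1 of the 12 fits and with the replicate block, which gave 13 above and 5 below (23.1% and 17.8% of all genes), with NARS1, PHGDH and SLC7A5 added above 0. With both drugs 5 genes were above 0 and 4 below (18.8% and 14% of all genes), the latter DDIT4 (-3.67 ± 0.48), DDIT3 (-2.99 ± 0.33), STC2 (-2.69 ± 0.89) and ATF3 (-2.48 ± 0.63), and without MM1.S vehicle replicate 2, 3 were above and 13 below (15.3% and 14.5% of all genes). With the block 9 were above and 5 below (23.1% and 17.3% of all genes), with MTHFD2, NARS1, PHGDH and SLC7A1 added above 0 and SLC3A2 below.

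The lines already differed with vehicle, by 14 genes higher and 9 lower in JJN3 (30.2% and 33.5% of all genes), or 20 and 6 without MM1.S vehicle replicate 2 (29.9% and 29.2% of all genes). With the replicate block 14 were higher and 8 lower (30.1% and 33.1% of all genes), with AARS1, ALDH1L2 and ASNS lost and SLC38A2 and SLC7A1 added as higher. STC2 had 1, 6 and 2 counts in MM1.S and 710, 1094 and 893 in JJN3 (log2 difference 8.11 ± 0.44). DDIT4 was higher in JJN3 by 4.04 ± 0.37, and CTH (1.68 ± 0.29), PYCR1 (1.48 ± 0.18) and SARS1 (1.43 ± 0.17) were higher too. ATF3 (-2.95 ± 0.41), SLC1A4 (-1.98 ± 0.12) and PSAT1 (-1.42 ± 0.30) were lower. DDIT3, TRIB3 and ATF4 did not pass (0.35 ± 0.25, 0.02 ± 0.15 and -0.56 ± 0.33), and DDIT3 was called higher in JJN3 without MM1.S vehicle replicate 2 (0.78 ± 0.26). Line and preparation cannot be told apart in this comparison.

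Among genes upstream of ATF4, most gave no call with CX-5461 in MM1.S. Of 10 kinases and sensors 1 was higher and 3 lower (median log2 fold change -0.29), in a comparison where 9.68% of all genes were called higher and 7.06% lower. HSPA5 (BiP), the chaperone that reports unfolded proteins in the endoplasmic reticulum, fell from 1489, 1967 and 1604 to 792, 1099 and 880.1 CPM (-0.87 ± 0.12, adjusted p = 8.81e-06), and DNAJC3, an inhibitor of the eIF2 kinases, was at -0.62 ± 0.09. EIF2AK4 (GCN2), the kinase for amino acid shortage, was the higher one (0.33 ± 0.11, adjusted p = 0.0378). Of 9 genes for subunits of eIF2 and eIF2B or for their phosphatase 0 were called by edgeR, DESeq2 or limma-voom, also at an unadjusted p under 0.05, and of 9 further tRNA synthetases 1 fell (FARSB, -0.58 ± 0.11). Of 14 further ATF4 targets 7 rose and 0 fell in edgeR, DESeq2 called 6, and 9 were higher and 0 lower at an unadjusted p under 0.05. Counts for these further lists in MM1.S are from all 12 libraries, vehicle replicate 2 included, and are not given without it. The vehicle libraries ranged from 28.4 to 150 CPM for SESN2 and from 355 to 374 CPM for SQSTM1, both among these targets. GDF15, a secreted stress cytokine, rose from 0.523, 0 and 0.664 to 56.0, 50.7 and 44.6 CPM (6.81 ± 0.35), and GADD45A, of DNA damage and growth arrest, by 1.90 ± 0.14. Both differed between the lines (-5.53 ± 1.19 and -2.03 ± 0.32 in JJN3 minus MM1.S). GDF15 had 7 counts in all with vehicle in MM1.S and 10 in JJN3, near the limit of 3 counts per library. The sizes of its fold change and line difference are therefore uncertain.

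With panobinostat in MM1.S the sensors had 2 higher and 5 lower, the eIF2 and eIF2B genes 1 higher and 6 lower of 9, and the further synthetases 2 higher and 6 lower of 9, where 36.9% of all genes were higher and 32.9% lower. EIF2AK4 was higher by 1.29 ± 0.11 and HSPA5 lower by -1.26 ± 0.12. The further synthetases FARSB (-1.69 ± 0.12) and YARS1 (-1.57 ± 0.16), for phenylalanine and tyrosine, had log2 fold changes below those of all 11 tRNA genes above. The further ATF4 targets were even, 6 higher and 6 lower of 14, with SQSTM1 (p62), an autophagy receptor, at 3.02 ± 0.19 and the glutamine transporter SLC38A1 at -1.80 ± 0.14. In JJN3, CX-5461 gave 0 calls among the sensors, the eIF2 genes, the further synthetases and the 13 further targets tested, by edgeR. Panobinostat gave 0 higher and 2 lower of 10 sensors, 0 and 4 of 9 eIF2 genes, 0 and 4 of 9 synthetases and 1 and 5 of 13 targets, where 15% and 10.9% of all genes were called.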

How the data were processed

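Gene expression was read by 3′ RNA sequencing of polyA-selected RNA in 24 libraries of MM1.S and JJN3 cells, assigned to 8 groups of 3 from their titles. The deposited tables, 1 for each line, hold raw counts, since all values are whole and library totals differ. HISAT2 2.2.1, featureCounts 2.0.1, limma 3.50.0 and the builds hg19 and GRCh37 are named, without roles, per the submitters' processing notes. No source used here gives the strand setting or the counting of multi-mapped reads, so antisense partners cannot be told apart and values of genes with close copies or pseudogenes (ATF4, PSAT1, PSPH) are uncertain. Symbols came from a name table of GRCh38.p14, which matched 27745 of 28395 identifiers. The other 650 held at most 0.0387% of a library's counts. Promoters came from a RefSeq table of the same assembly.

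Counts were tested with edgeR 4.0.16 in R 4.3.3 (TMM scaling, filterByExpr at its defaults, robust dispersions, two-sided quasi-likelihood F test, Benjamini-Hochberg adjustment over all genes tested). Each line was fitted on 12 libraries and 4 group means (8 residual degrees of freedom, 12030 and 11411 genes, biological coefficient of variation 0.107 and 0.154). Differences between the lines used 24 libraries and 8 means (12872 genes, 0.133). Standard errors come from the F statistic, CPM are TMM-scaled within a line, and levels are compared within a gene only. Total counts had a median of 5551875.5. In the 24 libraries 3 counts, taken as the limit that a count of 0 allows, are 0.411 to 0.631 CPM, a limit for counting error only. Replicates of every group differed beyond sampling noise. The 4 roles, the further lists and the members were chosen with earlier results of these data known, and no test compares a list with other genes.

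Genes given with every library were DDIT3, ATF3, TRIB3, ATF4 and, per role, the 2 with the smallest adjusted p for CX-5461 and for panobinostat in MM1.S. Further genes given so were chosen after their values were seen, because a statement on vehicle replicate 2 or on JJN3 turns on them. Alternatives were DESeq2 1.42.0, limma-voom (limma 3.58.1), 2 other scalings, no filter, the replicate number as a block, and each library left out. JJN3 libraries of the same number deviated together (correlations of 0.284 to 0.661 in 18 of 18 pairs, all over 0.1), so the block is given beside results with JJN3 libraries whose calls it changes. In MM1.S the pairs of CX-5461 with the combination did so too (0.117 to 0.261 in 3 of 3). No other 2 MM1.S groups had all 3 pairs over 0.1 (9 of 18 in all). The code was tested on simulated data. An item that the labels name for the lines is not reported here.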

Additional observations from a re-analysis of the deposited data

Results flagged for a closer look

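The results below were picked out because the effect of a treatment differed between JJN3 and MM1.S by a test of the difference itself (edgeR, adjusted p under 0.05). All values are log2 fold changes in JJN3 minus those in MM1.S. With CX-5461 these were DDIT3 at -3.28, ATF3 at -2.79, PPP1R15A at -1.78, SLC3A2 at -1.38 and TRIB3 at -1.22.

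With panobinostat DDIT4 was at -3.13, STC2 at -3.01, ATF3 at -2.31, DDIT3 at -1.80, CTH at -1.28 and SLC38A2 at -0.84. Above 0 were JDP2 at 2.51, SLC1A4 at 2.09, SLC1A5 at 1.91, SLC7A1 at 1.08, TRIB3 at 1.00, IARS1 at 0.82, PYCR1 at 0.80, CEBPG at 0.79, SHMT2 at 0.69 and MTHFD2 at 0.61. Without MM1.S vehicle replicate 2, 6 of these 10 lost their call (IARS1, JDP2, MTHFD2, PYCR1, SHMT2 and SLC7A1).

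With both drugs DDIT4 was at -3.67, DDIT3 at -2.99, STC2 at -2.69 and ATF3 at -2.48, and SLC1A4 was at 1.98, SLC1A5 at 1.46, CEBPG at 1.08, IARS1 at 0.80 and SHMT2 at 0.58. The last 2 lost their call without that library. The 3 comparisons share the vehicle libraries of both lines. Every group had 3 libraries, too few for the search for a single outlying value.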

How the results depend on the processing

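Numbers of genes called by edgeR changed as follows. Both drugs against panobinostat in MM1.S gave 1 call, 6 without the filter on low counts, 3 with DESeq2, 3 with limma-voom and 2 with the replicate block. CX-5461 in JJN3 gave 0 calls, 2 without the filter and 6 with the block. Both drugs against panobinostat in JJN3 gave 0, 1 without the filter and 5 with the block. The line difference for CX-5461 gave 5, 9 without the filter and 10 with the block, and that for the combination 9, 16 without the filter and 14 with the block. In MM1.S 9 of 18 same-number pairs correlated over 0.1 and 11 of 18 were the best match of their library, a hint of pairing from the data that met the limit in all 3 pairs for CX-5461 with the combination alone. The block gave 10 higher and 4 lower for CX-5461 (AARS1 and SARS1 lost, SLC1A4 added), 7 and 24 for panobinostat (SLC38A2 added), 5 and 23 for both drugs (ATF4 lost, TARS1 added), 3 and 24 for both against CX-5461 and 1 and 6 for additivity.

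With 1 library left out, calls ranged from 7 to 25 for CX-5461 in MM1.S, 30 to 32 for panobinostat, 25 to 32 for both drugs, 1 to 3 for both against panobinostat, 22 to 26 for both against CX-5461 and 3 to 14 for additivity. In JJN3 they ranged from 10 to 21 for panobinostat, 22 to 26 for both drugs and 8 to 17 for both against CX-5461, and were 0 for CX-5461, for both against panobinostat and for additivity. Line differences ranged from 2 to 14 for CX-5461, 10 to 16 for panobinostat, 7 to 16 for the combination and 17 to 26 for vehicle. The balance of higher and lower calls turned for the panobinostat difference without MM1.S vehicle replicate 2 (12 calls), MM1.S panobinostat replicate 3 (11) or JJN3 vehicle replicate 3 (10), and for the combination without MM1.S vehicle replicate 2 (16) or JJN3 vehicle replicate 3 (9).

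Of single genes, ATF4 with CX-5461 in MM1.S was at 0.0162 with limma-voom. Its combination difference between the lines turned to -0.00397 with RLE, -0.0124 with library size alone, -0.10 with limma-voom, -0.039 with the block and -0.078 without JJN3 replicate 2. DDIT3 for both drugs against CX-5461 in JJN3 turned to 0.036 with library size alone and 0.032 without JJN3 replicate 2, and ATF3 for additivity in JJN3 to -0.022 without JJN3 replicate 2. With 1 library left out the sign turned for ATF3 in JJN3 with CX-5461 (-8e-05 to 0.85), panobinostat (-0.16 to 0.50), both against CX-5461 (-0.00793 to 0.84) and additivity (-0.16 to 0.69). It turned for ATF4 with CX-5461 in MM1.S (-0.41 to 0.48), additivity in MM1.S (-0.027 to 0.86) and JJN3 (-0.32 to 0.22), and the line differences for CX-5461 (-0.78 to 0.11), the combination (-0.65 to 0.25) and vehicle (-0.77 to 0.14). For DDIT3 in JJN3 it turned with panobinostat (-0.25 to 0.00464), additivity (-0.042 to 0.22) and both against CX-5461 (-0.11 to 0.10), and for TRIB3 in vehicle between the lines (-0.085 to 0.31). The cause was not tested.

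Over 256 gene results, 1469 of 1531 values under other settings kept direction and call, 43 lost the call, 13 gained it and 6 turned. With libraries left out these were 1664 of 1949, 246, 6 and 33. Low counts limit SLC6A9, JDP2, STC2 in MM1.S, GDF15 with vehicle and CARS1, and they leave NUPR1 untested.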
